A study of Brassica oleracea var. capitata with 6 samples.

Results

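The transcripts described here are the annotated cabbage genes that stood at a high level in every leaf library. The genes were selected on their FPKM, and one was taken when it averaged at least 300 over the 6 libraries and its highest library was under 10 times its lowest, and new loci assembled from the reads were left out. This gave 29 genes of the 31497 listed, of which 27024 were annotated genes and 4473 were new loci. FPKM counts the fragments of a transcript per kilobase of its length, relative to all fragments mapped in the library. The values that chose the genes came from all 6 libraries, so their levels and their steadiness are given as a description.

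The libraries were made from leaves of *nwgl* plants (3 libraries) and of wild-type plants (3 libraries) of *Brassica oleracea* var. *capitata*, all taken at the harvesting stage. The *non-wax glossy* plant, *nwgl*, was found in the inbred line G287, carries a dominant mutation that segregates as a single gene, and has less wax on its leaves. The line of the wild-type plants used for the libraries is not given in the sources used here. The labels give 3 replicates for each genotype, which the study's methods call biological. The p-values set a difference against the spread between these samples. In limma, as used here, the spread of a gene was partly taken from other genes of a similar level. In whole leaves, fewer cells of a type and less RNA per cell cannot be told apart.

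In a green leaf, a small number of transcripts usually makes up a large part of the messenger RNA. The nuclear genes for the light-harvesting proteins and for the small subunit of Rubisco, the enzyme that fixes carbon dioxide, are well-known examples, and in many plants they form small families of similar genes. FPKM behaves like a share of the library, so that a transcript that takes more of the fragments leaves fewer for all others. None of the 29 genes was among the 2881 IDs in the study's supplementary tables, and the reference gene table used here listed no ID of this kind. The genes are therefore called by their IDs, with no function given. Leaf marker genes were not looked up, since the IDs were not paired with names.

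The depth of each library is not stated in the table, and the study's methods give the clean data in total and on average for a sample. Estimates from the ratio that recurred most often among low values were 0.893 to 1.02 times the fragments of wild-type replicate 1, but they rest on 4 to 11 genes a library, and ratios beyond 1.5 were not searched. Their summed FPKM lay between 291844 and 451537. Genes listed at a very high FPKM in one library and near 0 in another were common at the top of the table. Of the 44 annotated genes averaging at least 300 FPKM, 10 (22.7%) had a library under 1 FPKM, against 1.6% of the 125 annotated genes averaging 100 to 300 FPKM and 1.87% of the 4382 averaging 10 to 100 FPKM. All of these 10 also exceeded 1000 FPKM in another library. The limit on the ratio removes such genes by construction, and 15 abundant annotated genes fell outside it.

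The 29 genes took a large and uneven share of each library. They held 19.8%, 16.9% and 14.0% of the summed FPKM in *nwgl* replicates 1 to 3, and 14.5%, 12.6% and 22.1% in wild-type replicates 1 to 3. The mean share was 16.9% ± 2.93 in *nwgl* leaves and 16.4% ± 5.03 in wild-type leaves (SD, n = 3 each). The libraries of the genotypes overlapped, and the highest and the lowest share were both in wild-type libraries. The share moved more than the FPKM behind it. The 29 genes summed to 57863, 58580 and 63085 FPKM in the *nwgl* libraries, and to 59603, 55183 and 68791 FPKM in the wild-type libraries. The highest of these sums was 1.25 times the lowest, while the highest share was 1.75 times the lowest.

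Most of the movement in the total came from other genes. The 15 abundant annotated genes outside the ratio limit took 20.4%, 10.03% and 49.2% of the *nwgl* libraries, and 22.7%, 37.5% and 26.8% of the wild-type libraries. *Bol036868* alone took 30.7% of *nwgl* replicate 3, 12.9% of wild-type replicate 1 and 25.4% of wild-type replicate 2, and it was under 0.1 FPKM in the other libraries. The 7 abundant new loci took 3.85% to 11.7% of a library. When these abundant genes were set aside, the 29 genes made up 27.1%, 20.1% and 30.6% of the remaining FPKM in the *nwgl* libraries, and 19.9%, 21.6% and 36.0% in the wild-type libraries. The mean of that share was 25.9% ± 5.36 in *nwgl* leaves and 25.8% ± 8.83 in wild-type leaves (SD, n = 3 each), and the genotypes overlapped again.

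**Figure D1:**
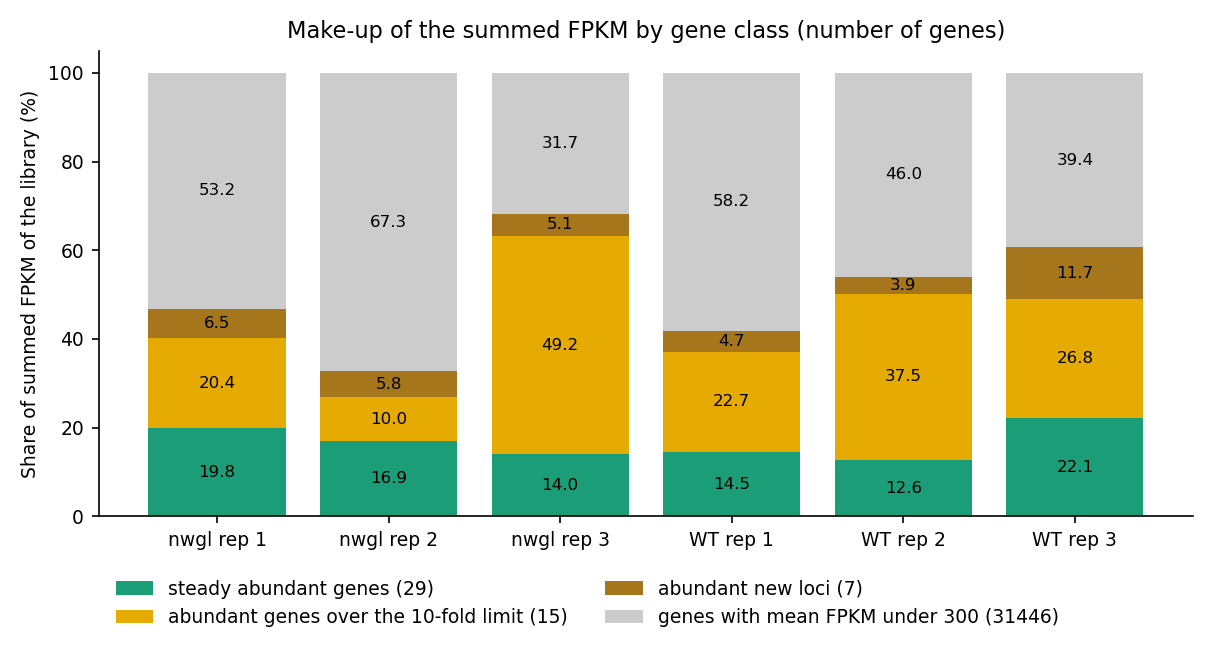
Share of the summed FPKM of each library (vertical axis, %) taken by 4 classes of genes, one bar per library, with the *nwgl* libraries on the left and the wild-type libraries on the right. The 29 steady genes (bottom segment) lie between 12.6% and 22.1%, while the 15 abundant genes outside the ratio limit vary between 10.03% and 49.2%.

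A pair of genes carried much of the sum. *Bol038686* stood at 16325, 15806 and 17841 FPKM in *nwgl* leaves, against 11151, 9024 and 14741 FPKM in wild-type leaves. *Bol038687*, its neighbour in ID number, stood at 10816, 8200 and 10640 FPKM in *nwgl* leaves, against 5482, 6566 and 11760 FPKM in wild-type leaves. All 3 *nwgl* libraries of *Bol038686* lay above all 3 wild-type libraries, whereas for *Bol038687* wild-type replicate 3 was the highest of all. Together the pair held 46.9%, 41.0% and 45.1% of the FPKM of the 29 genes in *nwgl* leaves, against 27.9%, 28.3% and 38.5% in wild-type leaves, and the genotypes did not overlap. The means of this proportion were 44.3% ± 3.04 and 31.6% ± 6.03 (SD, n = 3 each) in *nwgl* and wild-type leaves. This proportion was looked at after the levels had been seen, and it is given with no test. Its base is the 29 chosen genes alone. Of the whole library, the pair held 9.30%, 6.92% and 6.31% in *nwgl* leaves, against 4.04%, 3.57% and 8.52% in wild-type leaves. There the genotypes overlapped, as they did in the summed FPKM of the pair.

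Below this pair, the levels fell off in steps. *Bol036867*, *Bol038955* and *Bol038969* averaged 4430, 4321 and 4248 FPKM over the 6 libraries, and these neighbours in the order did not differ beyond their spread. *Bol036867* had 5193, 3391 and 5025 FPKM in *nwgl* leaves, against 4269, 1775 and 6929 FPKM in wild-type leaves. *Bol038955* had 3458, 3997 and 3375 FPKM in *nwgl* leaves, against 2623, 6100 and 6374 FPKM in wild-type leaves. *Bol038969* had 4127, 3232 and 3885 FPKM in *nwgl* leaves, against 2935, 4666 and 6647 FPKM in wild-type leaves. In all 3 genes the wild-type libraries held both the highest and the lowest value, and the *nwgl* libraries lay between them. *Bol036864* averaged 3609 FPKM and *Bol036863* 3016 FPKM, and 6 more genes had means between 1045 and 2168 FPKM. The remaining 16 genes averaged between 300.5 FPKM (*Bol027927*) and 934 FPKM (*Bol008442*).

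The median of the 29 genes was 755, 765 and 772 FPKM in the *nwgl* libraries and 1280.0, 932 and 469 FPKM in the wild-type libraries. The *nwgl* medians lay within a narrow band and the wild-type medians on both sides of it. The coefficient of variation, the SD over the mean of 3 libraries, had a median of 23.1% in *nwgl* leaves and 42.3% in wild-type leaves over the 29 genes, and it was lower in *nwgl* for 20 of them (69.0%). A lower value in *nwgl* was also found for 80.0% of the 105 annotated genes averaging 100 to 300 FPKM within the same ratio limit, and for 63.4% of all 15872 annotated genes averaging at least 1 FPKM. The share among the 29 genes lay between those of the other classes.

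**Figure D2:**
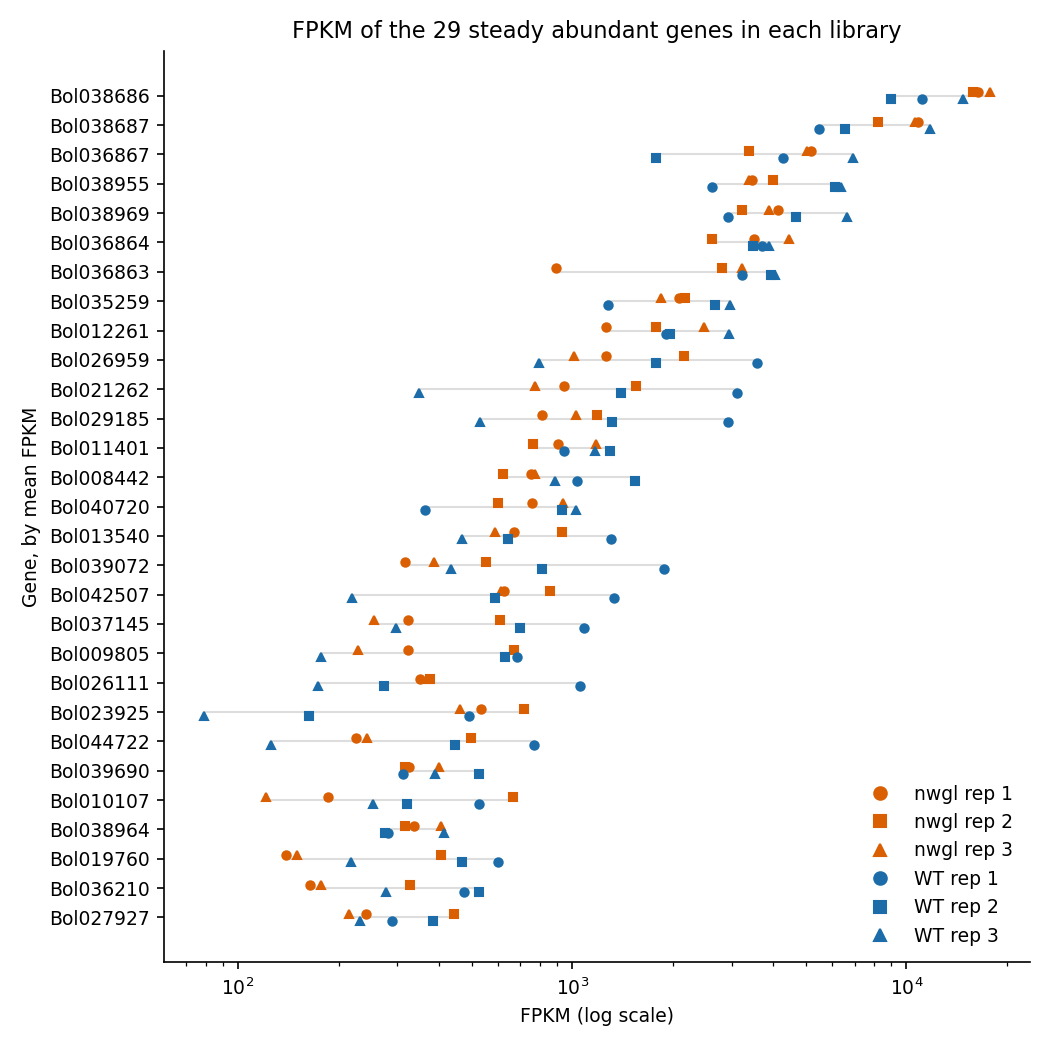
FPKM (horizontal axis, log scale) of the 29 steady abundant genes, one row per gene in order of mean FPKM, with *nwgl* libraries in orange and wild-type libraries in blue, and a symbol for each replicate. In many rows the wild-type points lie on both sides of the *nwgl* points, as for *Bol038955* with 2623 to 6374 FPKM in wild-type leaves around 3375 to 3997 FPKM in *nwgl* leaves.

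The steadiness of single genes varied widely inside the limit. The highest library was 1.501 times the lowest for *Bol038964* and 9.10 times for *Bol023925*, with a median of 3.21 times over the 29 genes. With no limit on the ratio, the median was 5.50 over the 44 annotated genes averaging at least 300 FPKM. It was 5.19 over the 125 averaging 100 to 300 FPKM and 3.15 over the 4382 averaging 10 to 100 FPKM. Steady thus means within the limit, and the median of the 29 genes was close to that of genes averaging 10 to 100 FPKM. The ratio was under 3 for 14 of the 29 genes and 2031 of these 4382 genes. Of the 125 genes averaging 100 to 300 FPKM, it was under 3 for 19. For 5 of the 29 genes the ratio was under 2, namely *Bol038964*, *Bol039690* (1.69), *Bol011401* (1.70), *Bol036864* (1.70) and *Bol038686* (1.98). *Bol038964* had 337, 316 and 405 FPKM in *nwgl* leaves, against 282, 275 and 413 FPKM in wild-type leaves. *Bol036864*, at a much higher level, had 3506, 2625 and 4467 FPKM in *nwgl* leaves, against 3704, 3466 and 3888 FPKM in wild-type leaves. Both stayed within a narrow band in all 6 libraries. At the other end, *Bol021262* had 947, 1556 and 776 FPKM in *nwgl* leaves, against 3103, 1404 and 349 FPKM in wild-type leaves. Its ratio of 8.90 came from 2 wild-type libraries.

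The limits cut through a continuous range. Just inside the limit on the mean were *Bol027927* (300.5 FPKM) and *Bol036210* (324 FPKM), and just outside it were *Bol028117* (299 FPKM) and *Bol031875* (290.3 FPKM). Just inside the limit on the ratio were *Bol023925* (9.10) and *Bol021262* (8.90), and just outside it were *Bol040165* (11.6) and *Bol023294* (12.6). *Bol040165* had 1479, 2375 and 1401 FPKM in *nwgl* leaves, against 10116, 1369 and 875 FPKM in wild-type leaves, so 1 wild-type library placed it outside.

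The order of the genes by FPKM was well kept at the top and loose lower down. In every library, 17 of the 29 genes were among the 51 highest-ranked genes of that library, 51 being the number of genes and new loci averaging at least 300 FPKM. The same held for 22 genes of any kind. All 29 were among the 150 highest-ranked genes of every library. *Bol038686* ranked between 2 and 4, *Bol038687* between 3 and 7 and *Bol036864* between 12 and 14. The widest moves were those of *Bol023925* (28 to 135), *Bol010107* (30 to 100) and *Bol038964* (31 to 98). *Bol038964* thus changed rank by 67 places while its FPKM varied by no more than 1.501 times. It ranked 98 in wild-type replicate 1 and 31 in wild-type replicate 3.

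Over the 29 genes, Spearman's rho between 2 libraries was 0.862 to 0.975 among *nwgl* libraries, 0.674 to 0.904 among wild-type libraries and 0.759 to 0.892 between genotypes (n = 29 genes). The lowest was between wild-type replicates 1 and 3. The range between genotypes lay within that among wild-type libraries. The 105 genes averaging 100 to 300 FPKM within the same limit gave 0.351 to 0.705 among *nwgl* libraries, -0.0365 to 0.361 among wild-type libraries and -0.0475 to 0.284 between genotypes (n = 105 genes). Their means cover a narrower range than those of the 29 genes, which lowers a rank correlation by itself. Genes of one library share its depth and its most abundant transcripts, so these coefficients are descriptions.

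Several of the most abundant genes carried neighbouring ID numbers. With neighbours taken as IDs that differ by at most 3, 5 of the 29 genes had another of the 29 beside them, in the run of *Bol036863*, *Bol036864* and *Bol036867* and in the pair of *Bol038686* and *Bol038687*. All 5 were among the 7 genes of the highest mean. Of the 105 annotated genes averaging 100 to 300 FPKM, 2 had a neighbour of that class. The IDs were read as numbers only, and their places on the chromosomes were not used here.

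The run of *Bol036863* summed to 9593, 8822 and 12710.3 FPKM over its 3 genes in *nwgl* leaves, against 11190.3, 9165 and 14853 FPKM in wild-type leaves. *Bol036863* itself had 894, 2806 and 3218 FPKM in *nwgl* leaves, against 3217, 3924 and 4035 FPKM in wild-type leaves. The low *nwgl* replicate 1 set it apart from *Bol036864*, whose ID follows directly and which was level in that library. *Bol036867* was lowest in wild-type replicate 2, where neither of the others had its lowest value. In *nwgl* replicate 2 all 3 genes were low together, as the lowest value of *Bol036864* and the second lowest of the others, and the sum of the run was lowest there.

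Beside these steady genes lay genes that stood very high in some libraries and near 0 in others. Of the 15 abundant annotated genes outside the ratio limit, 6 had an ID within 3 of one of the 29 genes. *Bol036868*, next to *Bol036867*, had 0.0367, 0.0459 and 138778 FPKM in *nwgl* leaves, against 53290, 110872 and 0.0306 FPKM in wild-type leaves. *Bol036862*, next to *Bol036863*, had 4393, 0.0787 and 3954 FPKM in *nwgl* leaves, against 0.0875, 4322 and 0.0368 FPKM in wild-type leaves. The high libraries of these genes came from both genotypes and differed from gene to gene. *Bol038685*, next to *Bol038686*, had 15388, 0.248 and 14368 FPKM in *nwgl* leaves, against 8898, 9189 and 13567 FPKM in wild-type leaves, and in the libraries other than *nwgl* replicate 2 its level was close to that of *Bol038686*. *Bol038686* itself, at 15806 FPKM, was not raised in the library in which *Bol038685* was near 0.

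*Bol036865* and *Bol036869* completed the set around the run. *Bol036865* exceeded 1 FPKM in *nwgl* replicate 3 alone, at 11930 FPKM, and *Bol036869* was under 1 FPKM in *nwgl* replicate 1 alone, with 3016 to 6839 FPKM in the other libraries. *Bol011400*, beside the steady *Bol011401*, varied less abruptly, with 43.4, 321 and 541 FPKM in *nwgl* leaves, against 97.8, 552 and 779 FPKM in wild-type leaves. *Bol011401* had 906, 765 and 1181 FPKM in *nwgl* leaves, against 948, 1299 and 1170.0 FPKM in wild-type leaves. The other 9 listed genes numbered from *Bol036856* to *Bol036872* averaged at most 117 FPKM. No sequence of these genes was used here and the handling of fragments that map to several places is not given in the sources used here, so whether neighbours share fragments was not tested. The level of a single gene in these runs is uncertain to that extent, and this holds for the pair of *Bol038686* and *Bol038687* as well.

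**Figure D3:**
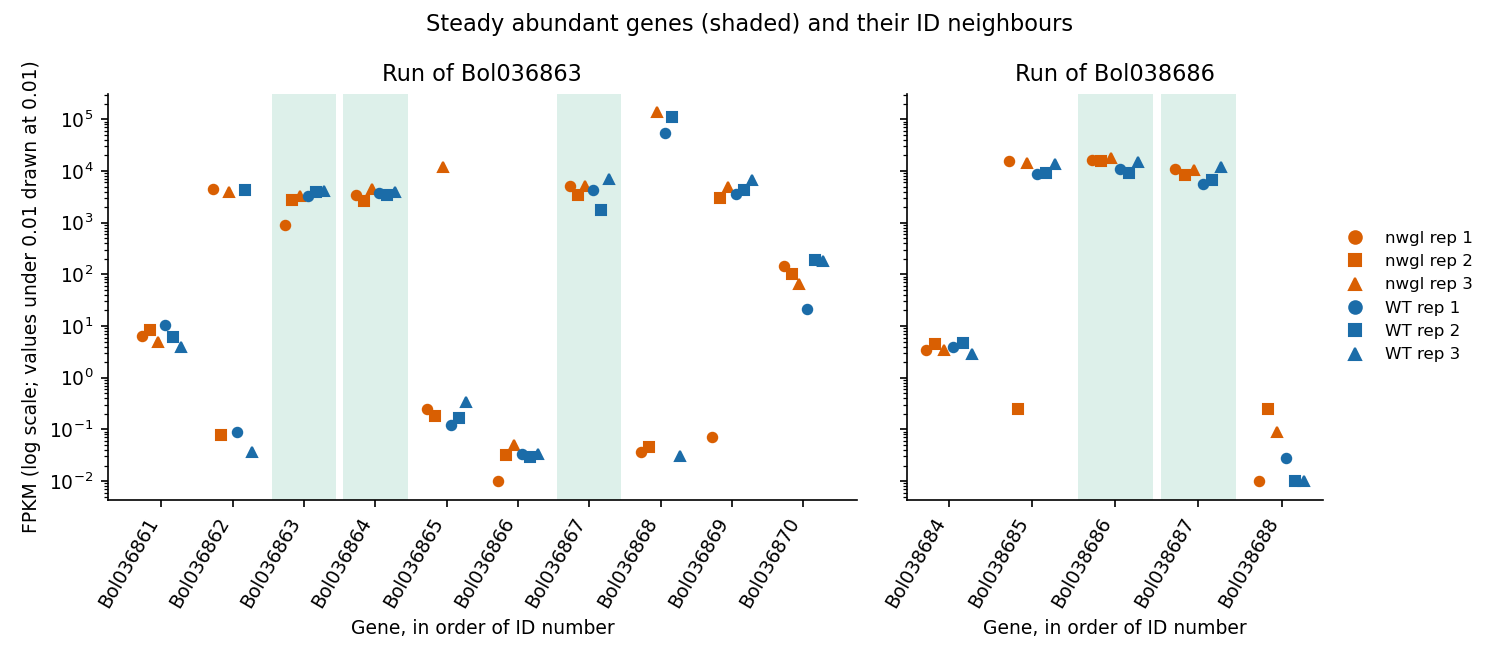
FPKM (vertical axis, log scale, values under 0.01 drawn at 0.01) of listed genes in order of ID number around *Bol036863* (left) and around *Bol038686* (right), with *nwgl* libraries in orange, wild-type libraries in blue and the steady genes shaded. The shaded genes stay between 894 and 17841 FPKM, while *Bol036862*, *Bol036865*, *Bol036868*, *Bol036869* and *Bol038685* each have 1 or more libraries under 1 FPKM.

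With IDs that differ by at most 10, *Bol038955*, *Bol038964* and *Bol038969* formed another run. *Bol038955* and *Bol038969* had similar means of 4321 and 4248 FPKM, while *Bol038964* averaged 338 FPKM. In all 3 genes wild-type replicate 3 was the highest library, and wild-type replicate 1 was below every *nwgl* library. The run summed to 7922, 7544 and 7665 FPKM in *nwgl* leaves, against 5839, 11042 and 13434 FPKM in wild-type leaves. The *nwgl* sums lay close together, between those of wild-type replicates 1 and 2.

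The libraries of one genotype often differed more than the genotypes did. For 16 of the 29 genes (55.2%), all 3 *nwgl* libraries lay between the lowest and the highest wild-type library, against 50.5% of the 105 genes averaging 100 to 300 FPKM and 25.7% of all genes tested. The reverse held for 3 of the 29 genes (10.3%), against 4.76% of the 105 genes and 8.22% of all genes tested. Wild-type replicate 1 was the highest library for 11 of the 29 genes and wild-type replicate 3 for 9, while these libraries were the lowest for 6 and 9. Among the 105 genes averaging 100 to 300 FPKM, wild-type replicate 1 was the highest library for 66 and the lowest for 4. Wild-type replicate 3 was the highest for 2 of these 105 and the lowest for 58. In *nwgl* replicate 1, 0 of the 29 genes and 0 of the 105 were highest. For 8 of the 29 genes wild-type replicate 1 was the highest library and wild-type replicate 3 the lowest, and for 5 it was the reverse. Genes thus moved in both directions between these libraries.

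Between wild-type replicates 1 and 3, 16 genes were higher in replicate 1, with a median ratio of 4.10 and a range of 1.16 to 8.90, and 13 were lower, with a median ratio of 0.648 and a range of 0.353 to 0.953. The 9 genes of the highest mean were all on the lower side, and 4 of the other 20 were. The cut at 9 lies where the side first changes. The next gene, *Bol026959*, was 4.48 times as high in replicate 1 as in replicate 3. The set of 16 summed to 7870, 12577 and 7398 FPKM in *nwgl* leaves, against 21129, 11989 and 5515 FPKM in wild-type leaves. The set of 13 summed to 49993, 46003 and 55688 FPKM in *nwgl* leaves, against 38475, 43194 and 63276 FPKM in wild-type leaves. The opposite order of these sums in wild-type replicates 1 and 3 is fixed by the way the sets were formed, and nothing is read from it.

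The sets were then followed in the *nwgl* libraries, which had not been used to form them, although all 6 libraries had been used to choose the genes. Of the 16 genes higher in wild-type replicate 1 than in replicate 3, 15 were higher in *nwgl* replicate 2 than in *nwgl* replicate 3. Of the 13 lower genes, 11 were lower in *nwgl* replicate 2 than in *nwgl* replicate 3. Between *nwgl* replicates 2 and 1, 15 of the 16 were higher in replicate 2 and 9 of the 13 were lower. Between *nwgl* replicates 1 and 3 the sets were hardly apart, with 9 of the 16 higher in replicate 1 and 8 of the 13 lower. The split was thus seen where *nwgl* replicate 2 was one of the libraries compared. Across the 29 genes, the log2 ratio of *nwgl* replicate 2 to *nwgl* replicate 3 and that of wild-type replicate 1 to wild-type replicate 3 had a Pearson's r of 0.617 and a Spearman's rho of 0.613 (n = 29 genes). With *nwgl* replicates 1 and 3 in place of 2 and 3, r was 0.314 and rho 0.293 (n = 29 genes). Over the 105 genes averaging 100 to 300 FPKM the coefficients for *nwgl* replicates 2 and 3 were 0.276 and 0.291 (n = 105 genes). These pairs of libraries were picked after the values had been seen, and the genes of one library share its depth and its most abundant transcripts.

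Most other genes lay on the side of the set of 16. Of the 15653 annotated genes averaging at least 1 FPKM and listed above 0 in every library, 82.4% were higher in *nwgl* replicate 2 than in *nwgl* replicate 3 and 68.4% were higher in wild-type replicate 1 than in wild-type replicate 3. Among the 105 genes averaging 100 to 300 FPKM these shares were 88.6% and 90.5%, and among the 29 steady abundant genes they were 58.6% and 55.2%. The 15 abundant genes outside the ratio limit took 10.03% of *nwgl* replicate 2 and 49.2% of *nwgl* replicate 3, and 22.7% of wild-type replicate 1 and 26.8% of wild-type replicate 3. The part of these shares in the ratios was not tested.

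**Figure D4:**
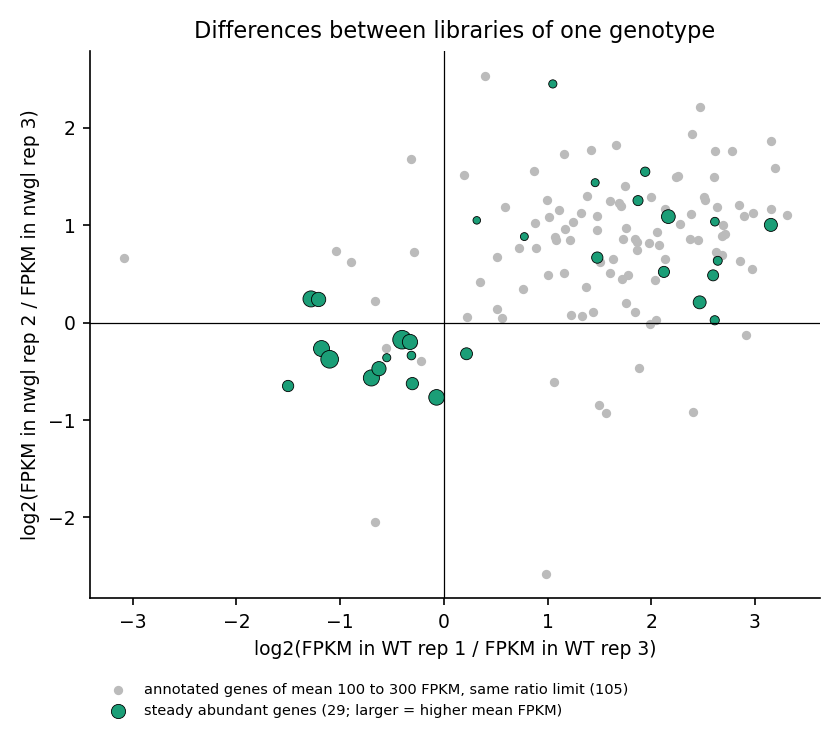
Log2 ratio of FPKM in *nwgl* replicate 2 to *nwgl* replicate 3 (vertical axis) against that in wild-type replicate 1 to wild-type replicate 3 (horizontal axis), for the 29 steady abundant genes (green, larger symbols for a higher mean) and the 105 annotated genes averaging 100 to 300 FPKM (grey). The largest symbols lie left of 0 on the horizontal axis, where 13 of the 29 genes stand, and most grey points lie at the upper right.

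Single examples show both sets. *Bol042507* had 624, 860.3 and 614 FPKM in *nwgl* leaves, against 1329, 586 and 220 FPKM in wild-type leaves. *Bol038969*, given above, followed the reverse course in the same libraries, and the correlation of log2 FPKM between this pair was -0.97 over the 6 libraries. *Bol044722*, with 226, 499.6 and 243 FPKM in *nwgl* leaves, against 769, 445 and 126 FPKM in wild-type leaves, followed the course of *Bol021262*, with a correlation of 0.98. Of the 406 pairs among the 29 genes, 25 had a correlation above 0.9 and 14 one below -0.9, with a median of 0.02 over all pairs. With 6 libraries, 3 from each genotype, these values describe the libraries and carry no test.

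The genotype comparison asked which transcripts differ in amount between *nwgl* and wild-type leaves. It was made with limma on log2(FPKM + 0.1) over 24332 genes averaging at least 0.1 FPKM, with Benjamini-Hochberg adjustment. To be called, a gene needed an adjusted p below 0.05 together with a log2 fold change of 1 or more in either direction. All 29 genes were tested and 0 were called, against 4.89% of all genes tested (3.69% higher in *nwgl* and 1.2% lower in *nwgl*). Of the 105 annotated genes averaging 100 to 300 FPKM within the same ratio limit, 0 were called as well. By limma's p before adjustment, 0 of the 29 were under 0.05, against 16.2% of all genes tested. The rule that chose the genes limits the ratio between libraries and with it the size of a fold change, so that these counts are not independent of it.

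The lowest adjusted p of the 29 was 0.388, by limma with Benjamini-Hochberg adjustment, for *Bol023925*. This gene had 533, 718 and 462 FPKM in *nwgl* leaves, against 492, 163 and 78.9 FPKM in wild-type leaves. It was high in all *nwgl* libraries and in wild-type replicate 1, so the genotypes overlapped. Its mean was 571 ± 132 FPKM in *nwgl* leaves and 245 ± 219 FPKM in wild-type leaves (SD, n = 3 each). On the log2 scale this was a difference of 1.60 (SE 0.80), which ran from 0.99 to 2.31 over the fits that each leave out 1 library. Its adjusted p by limma was 0.0886 without wild-type replicate 1, where the log2 fold change was 2.31.

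On the other side, *Bol039072* had 316, 553 and 385 FPKM in *nwgl* leaves, against 1884, 811 and 433 FPKM in wild-type leaves. Its log2 fold change was -1.10 (SE 0.85, adjusted p = 0.655 by limma), and wild-type replicate 3 lay below *nwgl* replicate 2. Without each library in turn its log2 fold change was -1.60 to -0.54, the last of these without wild-type replicate 1. *Bol023925* and *Bol039072* were the 2 genes of the 29 that reached a fold change of 1 on the log2 scale, upward or downward.

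Of the 105 annotated genes averaging 100 to 300 FPKM within the same ratio limit, 6 (5.71%) had genotypes that did not overlap. The genotypes did not overlap for 2 of the 29 genes (6.90%), against 20.3% of all genes tested (11.8% with *nwgl* above and 8.54% with *nwgl* below). One was *Bol038686*, the most abundant, with a mean of 16657 ± 1058 FPKM in *nwgl* leaves and 11639 ± 2890 FPKM in wild-type leaves (SD, n = 3 each), which is 1.43 times as much in *nwgl*. Its log2 fold change was 0.54 (SE 2.35, adjusted p = 0.961 by limma), and 0.38 to 0.73 over the fits without 1 library. The other was *Bol008442*, with 755, 619 and 772 FPKM in *nwgl* leaves, against 1032, 1541 and 887 FPKM in wild-type leaves. Its log2 fold change was -0.66 (SE 0.86, adjusted p = 0.837 by limma), and -0.83 to -0.43 over the fits without 1 library. An exact permutation test adds nothing here, since 3 libraries against 3 cannot give a p below 0.1 and groups that do not overlap always give that value. Neither gene was called by limma.

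The large SE of *Bol038686* goes with its level. In the fit used here, limma sets the spread it assumes for a gene partly from genes of a similar level. At a mean of at least 1000 FPKM, where the genes with a library near 0 are common, the median SE of the log2 fold change was 1.51 over all 26 genes and 1.32 over the 13 of the steady genes there. Without this trend in level the medians were 0.587 and 0.448. For *Bol038686* the SE was then 0.39 and limma's p before adjustment 0.197 (adjusted p = 0.614). The replicates of *Bol038686* alone, with nothing taken from other genes, gave an SE of 0.21. Most of the SE of 2.35 thus came from other genes. Without the trend, 1 of the 29 genes, *Bol023925*, had an unadjusted p under 0.05 in limma (0.0379, adjusted p = 0.257), and 0 had an adjusted p under 0.05.

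Over the 29 genes, the log2 fold change was below 0 for 22 (75.9%) and above 0 for 7. It was below 0 for 52.5% of all genes tested and for 61.0% of the 105 genes averaging 100 to 300 FPKM. When the libraries were brought to the same distribution by quantile normalization, it was below 0 for 9 of the 29 genes. The median log2 fold change was -0.22, against -0.04 over all genes tested and -0.12 over the 105 genes averaging 100 to 300 FPKM, and it turned to 0.13 over the 29 genes under quantile normalization, where that of all genes was -0.10. Over the fits without 1 library, the median was -0.35 to -0.06 for the 29 genes and -0.19 to 0.12 for all genes tested. The log2 fold change was nearest to 0 for *Bol026111* (-0.01), *Bol013540* (-0.04) and *Bol027927* (-0.05).

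**Figure D5:**
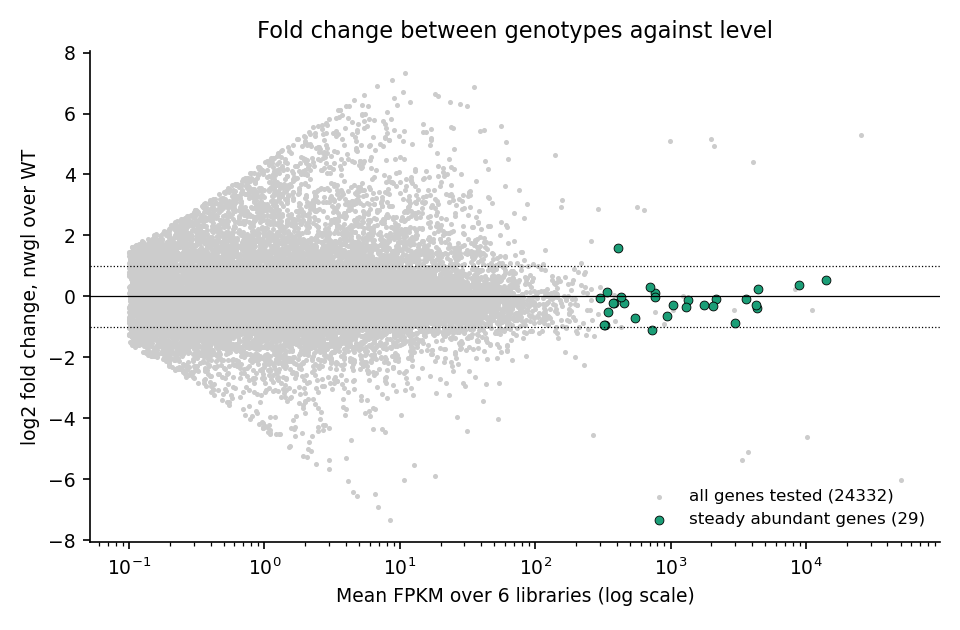
Log2 fold change of *nwgl* over wild-type leaves (vertical axis, on log2(FPKM + 0.1)) against mean FPKM over the 6 libraries (horizontal axis, log scale) for the 24332 genes tested (grey) and the 29 steady abundant genes (green), with dotted lines at a log2 fold change of 1 and -1. Of the green points, 27 lie between the lines, with *Bol023925* above at 1.60 and *Bol039072* below at -1.10, and neither passed the test.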

How the data were processed

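Per the labels and the study's methods, total RNA from leaves was made into 6 libraries with a directional kit, and the reads were aligned to the cabbage genome of Bolbase with HISAT2 and assembled with StringTie 1.3.1. The authors deposited FPKM values for each gene and library, which were used as they stand. The HISAT2 version and the handling of fragments that map to several places are not given in the sources used here. Read counts were not used here, so limma on log2 values took the place of the study's DESeq, with the same thresholds. FPKM corrects for transcript length and mapped fragments, and a few very abundant transcripts can lower all other values of a library. A table of lncRNA transcripts was not used.

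Shares, ranks, ratios and runs of ID numbers were computed with Python 3.11.15, pandas 2.3.3 and numpy 2.4.6, and figures with matplotlib 3.10.9. Genes averaging at least 0.1 FPKM were fitted in R 4.3.3 by genotype on log2(FPKM + 0.1), using limma 3.58.1 with lmFit and eBayes (trend on), and the script was tested on simulated data. The added 0.1 draws fold changes of very low genes toward 0. Without counts, precision was judged from the spread of replicates, and depth was read from the ratio that recurs between libraries among values under 0.3 FPKM, searched up to a ratio of 1.5. The alternatives were other pseudocounts, filters, scalings and limits, no trend, the replicate number as a block, and each library left out in turn. Of the 29 genes, those given with a test were the most abundant, those with the lowest adjusted p or the largest fold change, and those whose genotypes did not overlap, while examples of runs, rank and opposite courses were chosen after their values were seen. The genes, the classes compared and the lists were chosen with earlier results of these data known.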

Additional observations from a re-analysis of the deposited data

How the results depend on the processing

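In limma, 0 of the 29 genes were called under every alternative, and the fold changes of *Bol038686*, *Bol008442*, *Bol039072* and *Bol023925* kept their signs. The lowest adjusted p by limma was 0.0589, for *Bol023925* under quantile normalization, with a log2 fold change of 1.84. With the libraries scaled to the summed FPKM of genes averaging under 300 FPKM, its adjusted p by limma was 0.130. An unadjusted p under 0.05 in limma was found for 1 of the 29 genes in each of these fits. The number of genes with a log2 fold change below 0 was 22, and 9 under quantile normalization, where the median over the 29 genes turned to 0.13; the cause was not tested. Scaling the libraries to the summed FPKM of genes averaging under 300 FPKM, an alternative chosen after seeing the data, gave 19 genes below 0. Over the fits that each leave out 1 library, the median log2 fold change was -0.35 to -0.06 and the number below 0 was 16 to 21. With each library left out in turn, 28 to 34 genes met the rule. The mean share of the original 29 genes over the libraries kept was 15.6% to 17.5%. Of these 29, 17 to 18 stayed within the 51 highest ranks of every library used. The mean share of 16.7% became 25.9% when the other genes averaging at least 300 FPKM were left out of the sum, and 10.2% without *Bol038686* and *Bol038687*, a choice made after seeing the data. A mean of at least 500 FPKM left 19 genes, and IDs that differ by at most 10 gave 8 genes with a neighbour in place of 5. Replicate numbers were not shown to pair the libraries: deviations from the genotype means correlated at -0.03, 0.12 and 0.18 for libraries of the same number, and *nwgl* replicate 2 correlated best with wild-type replicate 1, at 0.14. The fit with a replicate block called 0 of the 29 genes, with a lowest adjusted p of 0.371 by limma, and 1314 genes in all against 1190. Over all genes tested, the number called was 735 among genes averaging at least 1 FPKM, 761 with no filter, 777 with a pseudocount of 1, 1583 under quantile normalization, 403 when *nwgl* replicate 1 was left out, 520 when *nwgl* replicate 2 was, and 588 when wild-type replicate 1 was. With 3 libraries a genotype and without read counts, differences between the genotypes could be missed, and the smallest detectable size was not worked out.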

Other observations

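Some new loci, which were assembled from the reads and carry no annotation, were as abundant and steady as the annotated genes. Of the 7 new loci averaging at least 300 FPKM, 5 had a highest library under 10 times the lowest. Kohlrabi_newGene_18376 had 9844, 7988 and 9309 FPKM in *nwgl* leaves, against 8449, 8023 and 6425 FPKM in wild-type leaves, a ratio of 1.53 between the highest and the lowest library. Kohlrabi_newGene_26430 had 399.9, 306 and 449.8 FPKM in *nwgl* leaves, against 448, 368 and 314 FPKM in wild-type leaves, a ratio of 1.47. Both ratios lay near the lowest found among the 29 annotated genes. Kohlrabi_newGene_39001 had 7431, 7157 and 11088 FPKM in *nwgl* leaves, against 8576, 6520 and 26139 FPKM in wild-type leaves, with wild-type replicate 3 far above the rest. In that library it took 8.41% of the summed FPKM, and in the others 1.49% to 2.55%.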
